A study of Mus musculus with 16 samples.

Results

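The 32 genes described here encode the coagulation factors, their inhibitors and the proteins of fibrinolysis, and were taken by symbol from the 17410 genes in the expression tables of 16 mouse livers. They were divided into 23 genes whose products hepatocytes make for the plasma and 9 assigned to endothelium and leukocytes (Vwf, Thbd, F8, Plat, Plau, Plaur, F13a1, F3 and Tfpi). Which cells made each RNA was not measured in whole liver. Neither the list nor its division rests on a threshold of expression. Both were chosen by gene symbol with the expected counts and FPKM of the 4 groups already known, so counts and medians over the list are descriptions, given beside the same value over all genes.

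RNA of 4 livers per group was sequenced in 2 experiments on ChREBPα, an isoform of a carbohydrate-responsive transcription factor encoded by Mlxipl. For the deletion, Chrebpα-flox/flox mice carried an AAV vector whose TBG promoter, active in hepatocytes, drove Cre (Chrebpα-LKO, livers 21 to 24) or GFP (Chrebpα-WT, livers 17 to 20). All 8 livers were from mice on a NASH diet for 12 weeks, with 40 kcal% fat, 20 kcal% fructose and 2% cholesterol. Non-parenchymal cells, in which TBG is not active, were not targeted. In the overexpression experiment, 2-month-old wildtype mice on a choline-free HFLMCD diet (45 kcal% fat, 0.1% methionine) for 3 weeks received adenovirus for Chrebpα (Ad-Chrebpα, livers 13 to 16) or GFP (Ad-GFP, livers 9 to 12), 1 week before dissection. The labels give neither the age of the flox mice nor the promoter of the adenovirus. They also do not say whether each library came from a separate animal.

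Blood clots when thrombin, released from prothrombin at the end of a chain of protease activations, cuts fibrinogen into fibrin, which factor XIII then crosslinks. The chain is started by tissue factor with factor VII or by contact of factor XII with a surface, it is restrained by serpins, by the protein C system and by TFPI, and plasmin dissolves the product. The liver is the main source of the plasma zymogens, of fibrinogen and of most of the serpins, and fibrinogen is also a classical acute-phase protein of hepatocytes, induced by interleukin-6 through STAT3.

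The libraries held 21254937 to 40327264 expected counts, and all 32 genes were listed in every liver and passed the filter on low counts in every comparison. Liver 21 stood apart from its group on the first principal component of its experiment, at -27.1 against 28.6 to 35.4 for the other Chrebpα-LKO livers and -41.7 to 3.02 for the Chrebpα-WT livers, and liver 14 lay at 10.3 against 24.1 to 28.1 for the other Ad-Chrebpα livers. Mlxipl itself had 47.5 to 100.1 FPKM (a deposited level scaled by gene length and library depth) in Chrebpα-LKO and 50.1 to 80.4 FPKM in Chrebpα-WT livers, and 44.7 to 47.8 FPKM in Ad-Chrebpα and 38.95 to 48.5 FPKM in Ad-GFP livers, and it was called in neither experiment. These gene totals check the labels weakly, since neither the deleted part of the gene nor the counting of vector transcripts is stated. The 15 hepatocyte markers looked at, Alb and Apoa1 among them, were present in every group, with a summed FPKM of 51470 to 87775 per liver.

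The fibrinogen chains led the list. Fgb had the highest mean FPKM in all 4 groups and Fgg the next, and Fga came after them except in Ad-GFP livers, where Kng1 lay above it. Together the 32 genes took 1.79% to 4.12% of all counts of a liver, and the 3 fibrinogen genes took 32.3% to 62.9% of that. Kininogen, prothrombin, antithrombin, plasminogen, histidine-rich glycoprotein and C1 inhibitor (Kng1, F2, Serpinc1, Plg, Hrg and Serping1) followed, with group means of 491 to 1149 FPKM. In Chrebpα-LKO livers, Hrg, F2, Serpinc1 and Plg averaged 784 ± 74.4, 768 ± 72.4, 757 ± 110 and 718 ± 30.3 FPKM (SD, n = 4), an order that lies within their spread. The lowest of the hepatocyte-made genes was F11 on the NASH diet, with a mean of 13.3 FPKM in Chrebpα-LKO and 15.8 FPKM in Chrebpα-WT livers. The 9 genes of endothelium and leukocytes averaged 0.12 to 8.30 FPKM across groups, in each group below every hepatocyte-made gene, and supplied 0.0736% to 0.731% of the list's counts. Their counts were correspondingly few on the NASH diet: F13a1 had 5 to 21 expected counts in a Chrebpα-LKO liver and 7 to 22 in a Chrebpα-WT liver.

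Fga, Fgb and Fgg (NCBI genes 14161, 110135 and 99571), for the α, β and γ chains of fibrinogen, are neighbours on chromosome 3 in the order Fgg, Fga, Fgb in the RefSeq gene table (GRCm38.p6). Their products join in equal number in the hexamer, and their levels kept close ratios: Fgb was 1.43 to 1.69 times Fga, and Fgg 1.06 to 1.33 times Fga, on the FPKM scale in all 16 livers. The 250 bases upstream of each gene start are shown because the 3 genes had fold changes of 1 sign and similar size in each comparison below. Capitals mark CTGGGA, a core sequence known from interleukin-6 response elements of fibrinogen genes, searched on both strands. The windows lie at chr3:83025903-83026152 (plus strand) for Fga, chr3:83049864-83050113 (minus strand) for Fgb and chr3:83007474-83007723 (plus strand) for Fgg, from the RefSeq promoter table of GRCm38.p6, written 5′ to 3′ along the gene.
Fga: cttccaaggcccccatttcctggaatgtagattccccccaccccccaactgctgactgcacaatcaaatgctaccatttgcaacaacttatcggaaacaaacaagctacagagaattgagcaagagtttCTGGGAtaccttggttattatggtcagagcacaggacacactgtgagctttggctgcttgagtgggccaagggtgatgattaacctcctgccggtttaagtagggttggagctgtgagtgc
Fgb: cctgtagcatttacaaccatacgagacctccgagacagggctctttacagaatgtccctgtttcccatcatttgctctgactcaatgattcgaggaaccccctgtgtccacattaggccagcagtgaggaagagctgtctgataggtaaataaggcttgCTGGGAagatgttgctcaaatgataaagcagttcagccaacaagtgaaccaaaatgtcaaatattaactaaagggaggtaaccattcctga
Fgg: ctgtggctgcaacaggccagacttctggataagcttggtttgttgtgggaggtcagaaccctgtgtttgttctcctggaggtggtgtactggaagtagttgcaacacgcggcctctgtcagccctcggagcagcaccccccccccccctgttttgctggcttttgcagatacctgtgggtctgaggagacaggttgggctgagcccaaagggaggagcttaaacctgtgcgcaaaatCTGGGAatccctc
The matches begin 121, 91 and 13 bases before the starts of Fga, Fgb and Fgg. The motif occurred in 27.0% of the 32851 promoters of the table, and among the list in 8 of 19 hepatocyte-made genes and in 2 of 5 others that have an entry there. GTTAAT, a half-site of the HNF1 motif, was found in the windows of Fga and Fgb (4 of 19 hepatocyte-made genes, 0 of 5 others, 6.43% of all promoters). CACGTG, 1 form of the E-box, was found in 0 of 19 and 0 of 5 windows (6.02% of all promoters). With a share that low, 0 matches in so few windows do not show that such sites are lacking. These are matches of letters in a short window, not binding sites.

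**Figure D1:**
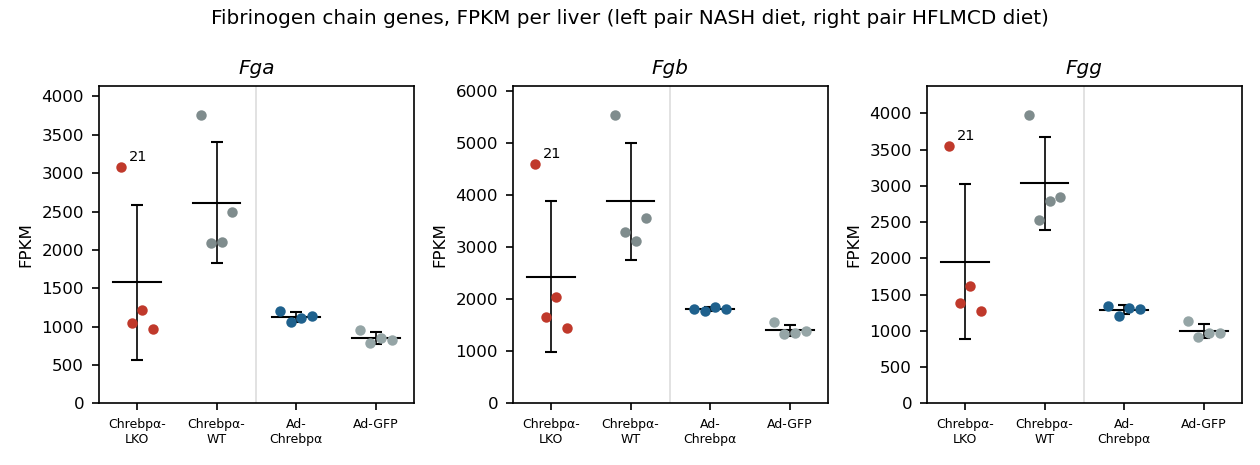
FPKM of Fga, Fgb and Fgg in each liver, with 1 point per liver, the group mean as a line and 1 SD as an error bar (n = 4). Liver 21 is labelled and lies at 3079 FPKM of Fga, apart from the other Chrebpα-LKO livers at 965 to 1220.0 FPKM, and the Ad-Chrebpα livers lie above the Ad-GFP livers for all 3 genes.

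The first comparison sets livers with hepatocyte deletion of Chrebpα against their controls on the NASH diet. The hepatocyte-made factors all had negative fold changes, of which the fibrinogen chains had the 3 largest, and most factors of endothelium and leukocytes had positive ones, but none passed the test. By edgeR with Benjamini-Hochberg adjustment, 0 of 32 were called at an adjusted p below 0.05, and over all 12786 genes tested 0% were called higher and 0% lower, with a lowest adjusted p of 0.242. Of the members, 2 had a higher and 6 a lower level with p below 0.05 before adjustment, where 7.7% of all genes were higher and 5.88% lower. DESeq2 called 158 genes, with 0 members among them, and limma-voom called 0 genes. The log2 fold change (Chrebpα-LKO over Chrebpα-WT) was negative for 23 of 23 hepatocyte-made genes, with a median of -0.28, and positive for 7 of 9 others, with a median of 0.28. The median over all genes tested was 0.01. On log2(FPKM + 1), where the median of all genes lies at 0.10, 18 of the 23 were negative and their median was -0.12.

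In the same livers, 19 of 20 macrophage markers had positive fold changes, with a median of 0.69 and a summed level of 179 to 427 FPKM in Chrebpα-LKO against 131 to 275 FPKM in Chrebpα-WT livers. Of 18 endothelium markers 17 were positive, with a median of 0.38 and a summed level of 144 to 249 FPKM in Chrebpα-LKO against 105 to 156 FPKM in Chrebpα-WT livers. Of 15 hepatocyte markers 11 were negative, with a median of -0.11. No marker was called, all markers of these 3 lists were above 0.1 FPKM in at least 1 liver of each group, and their part in the fold changes of the factors was not tested. Of 10 neutrophil markers 3 were tested, 2 of them negative, with a median of -0.52. Of 10 T and B cell markers 6 were tested, 5 of them positive, with a median of 0.67. In whole liver, fewer cells of a type and less RNA per cell cannot be told apart.

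Each fibrinogen chain split the Chrebpα-LKO livers. Fga had 3079, 1044, 1219.99 and 965 FPKM in Chrebpα-LKO livers 21 to 24, against 3760.3, 2092, 2102 and 2494 FPKM in Chrebpα-WT livers 17 to 20. Fgb had 4589, 1650.4, 2044 and 1453 FPKM in Chrebpα-LKO livers and 5542, 3297, 3120.4 and 3567 FPKM in Chrebpα-WT livers. Fgg had 3550.1, 1388, 1612 and 1270.1 FPKM in Chrebpα-LKO livers and 3979, 2528, 2786 and 2847 FPKM in Chrebpα-WT livers. For all 3 genes, livers 22, 23 and 24 lay below every Chrebpα-WT liver, while liver 21 lay above 3 of the 4. The log2 fold changes were -0.86 ± 0.42 for Fga, -0.81 ± 0.40 for Fgb and -0.77 ± 0.36 for Fgg (SE; adjusted p of 0.397, 0.401 and 0.381, edgeR). Without liver 21, the library that stands apart, they were -1.45, -1.35 and -1.26, and the 3 genes were called lower (adjusted p of 0.0388, 0.0441 and 0.0359), as the only members among the 1.96% of genes called lower and the 1.28% called higher in that fit. Leaving out liver 19 as well gave -1.55, -1.45 and -1.31 (adjusted p of 0.0253, 0.0283 and 0.0266, edgeR), with 7.05% of genes called lower and 4.84% higher. On the first principal component, liver 19, at 3.02, was the Chrebpα-WT liver nearest to Chrebpα-LKO livers 22 to 24. Leaving out the liver of each group nearest the other group widens the difference by itself. The same holds for leaving out liver 21 alone, which was picked from these data and had the highest fibrinogen levels of the Chrebpα-LKO livers. Neither fit is therefore a test of the fibrinogen genes. Leaving out any single liver other than liver 21 gave no call.

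Among the zymogens and cofactors of the clotting chain the groups overlapped. Prothrombin (F2) had 668, 828, 813 and 763 FPKM in Chrebpα-LKO livers and 694, 734, 756 and 689 FPKM in Chrebpα-WT livers, a log2 fold change of -0.05 ± 0.13 (SE) that turns to 0.09 on log2(FPKM + 1). Factor VII (F7), the partner of tissue factor, had 22.5, 33.0, 33.1 and 24.8 FPKM in Chrebpα-LKO livers and 35.8, 35.2, 27.2 and 25.8 FPKM in Chrebpα-WT livers. Factor XI (F11), which thrombin and factor XIIa activate, had 11.2, 13.7, 12.8 and 15.5 FPKM in Chrebpα-LKO livers and 12.6, 21.95, 17.1 and 11.7 FPKM in Chrebpα-WT livers. F7 and F11 overlapped between groups, and F11 was at its highest in the Chrebpα-WT liver 18. The log2 fold changes of factors V, VII, IX, X, XI, XII and XIII B (F5, F7, F9, F10, F11, F12 and F13b) lay between -0.41 for F11 and -0.06 for F12, with adjusted p from 0.399 to 0.797.

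The proteins that act on plasmin included 2 of the 6 lowest p-values. Serpinf2, for α2-antiplasmin, the fast inhibitor of plasmin, had 254, 268, 280.4 and 211 FPKM in Chrebpα-LKO livers and 326, 342, 292 and 278 FPKM in Chrebpα-WT livers. Cpb2, for the carboxypeptidase that trims plasminogen binding sites off fibrin, had 284, 221, 236 and 190.2 FPKM in Chrebpα-LKO livers and 355, 271, 280.2 and 278 FPKM in Chrebpα-WT livers. Plasminogen (Plg) had 703, 761, 716 and 692 FPKM in Chrebpα-LKO livers and 871, 896, 801 and 700.3 FPKM in Chrebpα-WT livers. In each case most Chrebpα-LKO livers lay at the low end of the range with some overlap. The log2 fold changes were -0.44 ± 0.16 for Serpinf2 (adjusted p = 0.356, edgeR), -0.49 ± 0.18 for Cpb2 (adjusted p = 0.356) and -0.34 ± 0.15 for Plg (adjusted p = 0.369).

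Of the anticoagulant proteins, antithrombin (Serpinc1) had 638, 777, 898 and 716 FPKM in Chrebpα-LKO livers and 665, 722, 731 and 711 FPKM in Chrebpα-WT livers, a log2 fold change of -0.05 ± 0.15. Protein S (Pros1), the cofactor of activated protein C, had 23.2, 20.7, 18.1 and 22.3 FPKM in Chrebpα-LKO livers and 25.6, 21.8, 22.2 and 22.4 FPKM in Chrebpα-WT livers, a log2 fold change of -0.28 ± 0.11 (adjusted p = 0.356, edgeR). Neither separated the groups: antithrombin was both lowest and highest in Chrebpα-LKO livers. Kng1, for high-molecular-weight kininogen of the contact pathway, was the only member whose groups did not overlap, and it is named here after its values were seen. It had 1015, 979.6, 1012 and 949 FPKM in Chrebpα-LKO livers and 1295, 1141, 1029 and 1133 FPKM in Chrebpα-WT livers, a log2 fold change of -0.37 ± 0.14 (adjusted p = 0.357, edgeR). Of all genes tested, 0.673% had all Chrebpα-LKO livers below all Chrebpα-WT livers, and 6.93% had them above, with 0 members among these. Kng1 has a closely similar copy next to it, Kng2, so the division of reads between them is uncertain.

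The factors of endothelium and leukocytes included the 3 lowest p-values of the list. Tissue factor (F3), the membrane receptor that starts clotting with factor VII, had 2.77, 2.39, 2.96 and 2.34 FPKM in Chrebpα-LKO livers and 2.85, 3.53, 3.52 and 3.77 FPKM in Chrebpα-WT livers. Urokinase (Plau), a plasminogen activator, had 0.58, 1.17, 0.77 and 1.36 FPKM in Chrebpα-LKO livers and 0.26, 0.38, 0.49 and 0.64 FPKM in Chrebpα-WT livers. Factor VIII (F8), the cofactor of factor IXa, made in liver mainly by sinusoidal endothelium, had 1.82, 3.88, 2.36 and 2.59 FPKM in Chrebpα-LKO livers and 1.17, 1.62, 1.62 and 1.83 FPKM in Chrebpα-WT livers. For F3, 3 of 4 Chrebpα-LKO livers lay below every Chrebpα-WT liver, and for Plau and F8, 3 of 4 lay above every Chrebpα-WT liver, with liver 23 out of that order for F3 and liver 21 for Plau and F8. Their log2 fold changes were -0.53 ± 0.15 for F3, 0.97 ± 0.31 for Plau and 0.62 ± 0.21 for F8 (adjusted p of 0.31, 0.343 and 0.343, edgeR). F3 had the lowest fold change of its class, whose median was 0.28.

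The endothelial proteins Vwf, which tethers platelets, and Thbd, the thrombin receptor that turns thrombin on protein C, were close to 1 FPKM. Vwf had 1.09, 1.63, 1.19 and 1.40 FPKM in Chrebpα-LKO livers and 0.82, 0.95, 1.24 and 0.90 FPKM in Chrebpα-WT livers, and Thbd had 0.97, 1.51, 1.12 and 1.28 FPKM in Chrebpα-LKO livers and 0.92, 0.76, 0.80 and 1.24 FPKM in Chrebpα-WT livers. Tissue plasminogen activator (Plat) had 0.79, 0.18, 0.38 and 0.43 FPKM in Chrebpα-LKO livers and 0.27, 0.20, 0.15 and 0.72 FPKM in Chrebpα-WT livers, and the A subunit of factor XIII (F13a1), carried by macrophages and platelets, had 0.19, 0.07, 0.06 and 0.17 FPKM in Chrebpα-LKO livers and 0.12, 0.08, 0.11 and 0.17 FPKM in Chrebpα-WT livers. All 4 genes overlapped between groups. Tfpi, which inhibits the tissue factor complex, had 1.71, 2.54, 2.34 and 1.99 FPKM in Chrebpα-LKO livers and 1.12, 1.71, 1.5 and 1.92 FPKM in Chrebpα-WT livers, and Plaur, the urokinase receptor, had 1.73, 0.28, 0.50 and 0.85 FPKM in Chrebpα-LKO livers and 0.60, 0.20, 0.52 and 0.76 FPKM in Chrebpα-WT livers. Both overlapped too. Liver 21 was the highest Chrebpα-LKO liver for Plat and Plaur, whose fold changes of 0.26 and 0.54 turned to -0.22 and -0.13 without it.

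**Figure D2:**
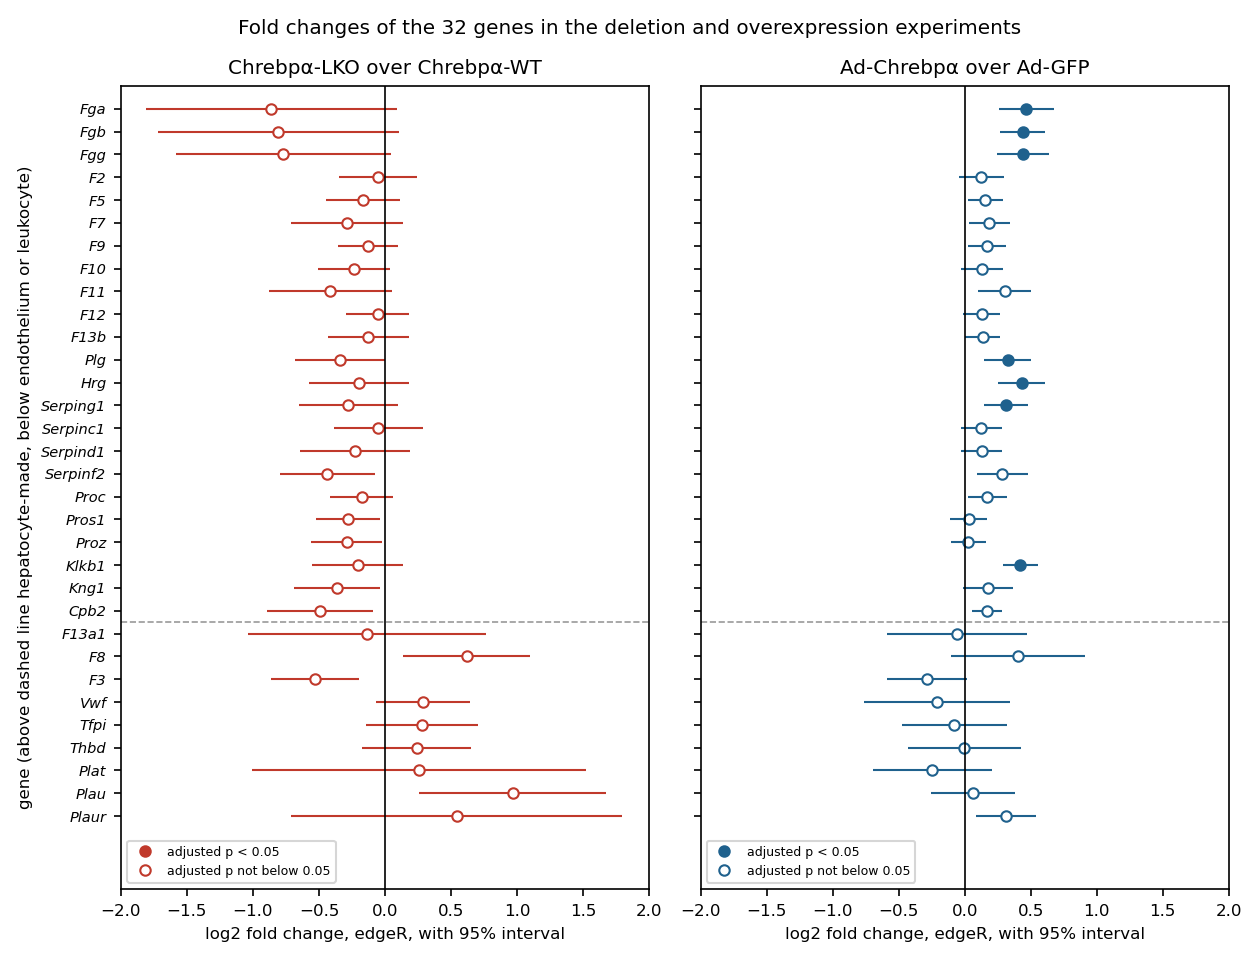
log2 fold change of each of the 32 genes with its 95% interval (edgeR), for Chrebpα-LKO over Chrebpα-WT on the left and Ad-Chrebpα over Ad-GFP on the right, with filled points for an adjusted p below 0.05. The 23 hepatocyte-made genes lie left of 0 in the deletion experiment and right of 0 in the overexpression experiment, where 7 are filled.

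The second comparison sets livers given adenoviral Chrebpα against livers given GFP on the HFLMCD diet. The fibrinogen chains, plasminogen, plasma prekallikrein, histidine-rich glycoprotein and C1 inhibitor rose, each by less than 0.5 on the log2 scale. With edgeR, 7 of 32 members were called higher and 0 lower, and all 7 were hepatocyte-made, where 4.95% of the 13658 genes tested were called higher and 3.18% lower. Before adjustment, 16 members had p below 0.05 and a higher level and 0 a lower level, where 13.5% of all genes were higher and 13% lower. The log2 fold change (Ad-Chrebpα over Ad-GFP) was positive for 23 of 23 hepatocyte-made genes, with a median of 0.17, and for 3 of 9 others, with a median of -0.06. The median of all genes was -0.01. On log2(FPKM + 1), where the median of all genes lies at -0.06, 21 of 23 were positive. A fit to all 16 libraries, which takes a common spread from both experiments, called 0 members, where it called 1.71% of all genes higher and 0.723% lower, and DESeq2 called 12 higher and 0 lower, where it called 8.06% of all genes higher and 6.15% lower.

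Of the 15 hepatocyte markers, 14 had positive fold changes in these livers, with a median of 0.22 and 2 called higher (Apoa1 and Arg1), and their summed level was 56324 to 64316 FPKM in Ad-Chrebpα and 51470 to 63728 FPKM in Ad-GFP livers. The macrophage markers had a median of -0.08, with 1 of 20 called higher (Itgax), and a summed level of 1151 to 1704 FPKM in Ad-Chrebpα and 1469 to 2221 FPKM in Ad-GFP livers. The endothelium markers had a median of 0.04, with 0 of 18 called and a summed level of 181 to 253 FPKM in Ad-Chrebpα and 166 to 338 FPKM in Ad-GFP livers. Of 5 neutrophil markers tested 3 were negative, with a median of -0.08 and 0 called. Of 9 T and B cell markers tested 7 were positive, with a median of 0.25 and 0 called. The part of the markers in the fold changes of the factors was not tested.

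All 3 fibrinogen genes separated the groups. Fga had 1207, 1055, 1109 and 1139.8 FPKM in Ad-Chrebpα livers 13 to 16, against 959.9, 781, 846 and 823 FPKM in Ad-GFP livers 9 to 12. Fgb had 1820.4, 1767, 1852 and 1817 FPKM in Ad-Chrebpα livers and 1557, 1324, 1347 and 1385 FPKM in Ad-GFP livers. Fgg had 1343, 1206, 1315 and 1304 FPKM in Ad-Chrebpα livers and 1132, 913, 975 and 969.6 FPKM in Ad-GFP livers. Every Ad-Chrebpα liver lay above every Ad-GFP liver, and liver 9 was the highest of the Ad-GFP livers for all 3 genes. The log2 fold changes were 0.47 ± 0.09 for Fga, 0.44 ± 0.08 for Fgb and 0.44 ± 0.09 for Fgg (SE; adjusted p of 0.018, 0.0109 and 0.0184, edgeR).

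Klkb1, a gene of the contact pathway, held the smallest p of the list. F12 and Kng1 of the same pathway overlapped between groups and were not called (adjusted p of 0.220 and 0.213, edgeR). Plasma prekallikrein (Klkb1), the zymogen that factor XIIa turns into kallikrein, had 57.6, 61.2, 61.3 and 66.9 FPKM in Ad-Chrebpα livers and 50.1, 50.4, 44.4 and 48.7 FPKM in Ad-GFP livers, and rose by 0.42 ± 0.06 (adjusted p = 0.00428, edgeR). C1 inhibitor (Serping1), the serpin of kallikrein and factor XIIa, had 563, 535, 675 and 549.7 FPKM in Ad-Chrebpα livers and 486, 522, 469 and 487 FPKM in Ad-GFP livers, and rose by 0.31 ± 0.07 (adjusted p = 0.0333). Factor XI, next to Klkb1 on chromosome 8 and similar to it in sequence, had 39.8, 31.1, 34.2 and 36.8 FPKM in Ad-Chrebpα livers and 30.1, 28.3, 31.1 and 31.4 FPKM in Ad-GFP livers. Klkb1 and Serping1 did not overlap between groups, while F11 overlapped in liver 14 and had a log2 fold change of 0.30 ± 0.09 (adjusted p = 0.0653).

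Plasminogen had 744, 686, 657 and 708 FPKM in Ad-Chrebpα livers and 624, 546, 599 and 572 FPKM in Ad-GFP livers, and rose by 0.33 ± 0.08 (adjusted p = 0.037). Histidine-rich glycoprotein (Hrg), a plasma protein that binds plasminogen, fibrinogen and heparin, had 690.5, 654, 598 and 685 FPKM in Ad-Chrebpα livers and 497, 473, 529 and 545 FPKM in Ad-GFP livers, and rose by 0.43 ± 0.08 (adjusted p = 0.0137). Both genes were higher in every Ad-Chrebpα liver than in any Ad-GFP liver. In all, 10 hepatocyte-made genes had groups that did not overlap, all higher, where 4.84% of all genes were so. These are the 7 called genes with F7, Proc and Cpb2.

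Leaving out single livers changed these calls. Fgb, Hrg and Klkb1 were called whichever of the 8 livers was left out, and they were the only calls without liver 12 or without liver 16. Without liver 11 the calls were these 3 and Fga. Plg and Serping1 were not called without liver 10 or without liver 13, and Serping1 was not called without liver 9 or without liver 15 either. The log2 fold changes of the 7 genes stayed positive in every such fit.

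By edgeR, 0 of the other hepatocyte-made genes were called, and DESeq2 called F5, F11, Serpinf2 and Cpb2 among them higher. Prothrombin had 712, 657, 662 and 685 FPKM in Ad-Chrebpα livers and 692, 595, 660.0 and 664 FPKM in Ad-GFP livers, a log2 fold change of 0.13 ± 0.08. Factor VII had 32.9, 28.9, 28.25 and 30.7 FPKM in Ad-Chrebpα livers and 28.0, 27.5, 28.2 and 27.8 FPKM in Ad-GFP livers, with a log2 fold change of 0.19 ± 0.07 (adjusted p = 0.118). Antithrombin had 763, 718, 688 and 754 FPKM in Ad-Chrebpα livers and 723, 667, 715 and 706 FPKM in Ad-GFP livers, a log2 fold change of 0.13 ± 0.07. F2 and Serpinc1 overlapped between groups and F7 did not, by 28.25 FPKM in the lowest Ad-Chrebpα liver against 28.22 FPKM in the highest Ad-GFP liver. The remaining 10 hepatocyte-made genes other than F11, for factors V, IX, X, XII and XIII B, heparin cofactor II (Serpind1), protein C, protein S, protein Z and kininogen, had log2 fold changes of 0.03 to 0.18 with adjusted p from 0.123 to 0.800. Serpinf2 and Cpb2, the inhibitors of fibrinolysis, had 0.29 and 0.17, with adjusted p of 0.068 and 0.0684.

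**Figure D3:**
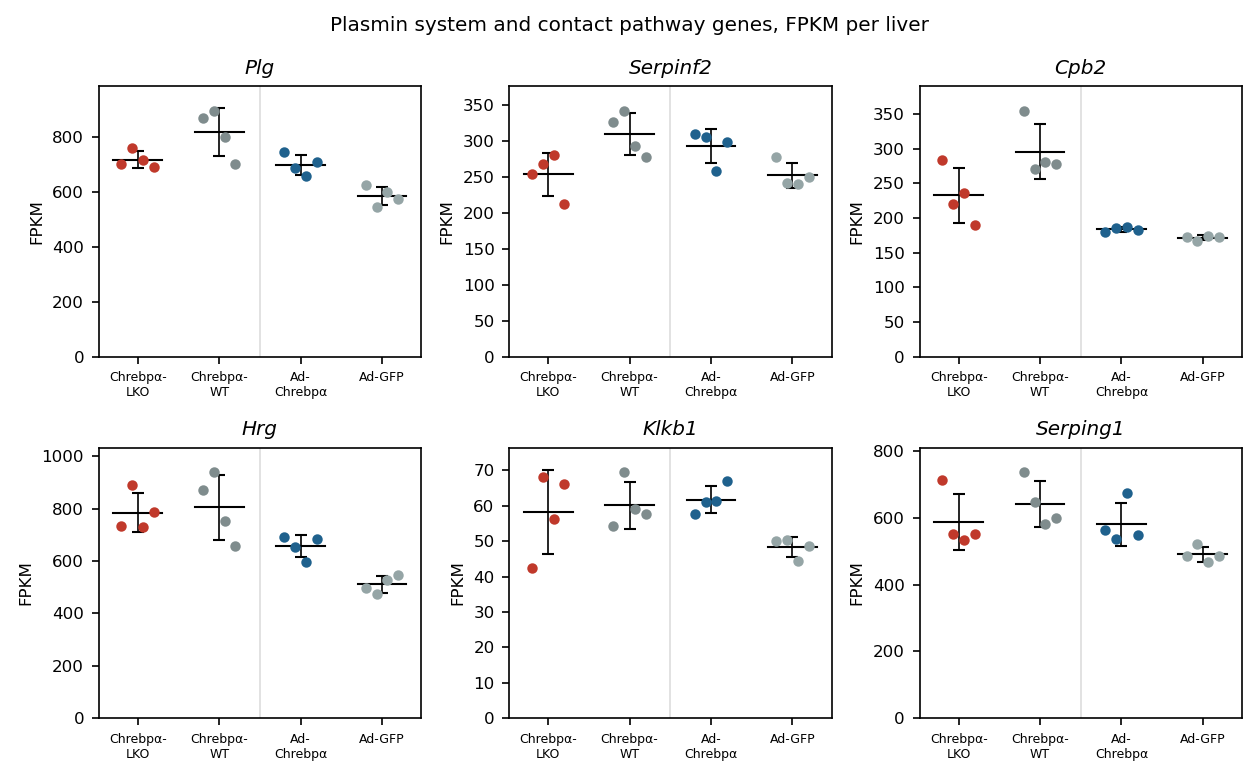
FPKM of plasminogen (Plg), its inhibitors Serpinf2 and Cpb2, Hrg, Klkb1 and Serping1 in each liver, with the group mean as a line and 1 SD as an error bar (n = 4). Plg, Hrg, Klkb1 and Serping1 lie higher in all Ad-Chrebpα livers than in all Ad-GFP livers, and Chrebpα-LKO and Chrebpα-WT livers overlap for all 6 genes.

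By edgeR, 0 of the 9 factors of endothelium and leukocytes were called with adenoviral Chrebpα, and DESeq2 called Plaur higher. F3 had 3.79, 3.45, 2.66 and 3.49 FPKM in Ad-Chrebpα livers and 4.85, 4.11, 4.35 and 3.86 FPKM in Ad-GFP livers, and F8 had 3.57, 2.63, 4.04 and 3.84 FPKM in Ad-Chrebpα livers and 2.71, 4.33, 2.47 and 1.79 FPKM in Ad-GFP livers. Plau had 3.86, 6.16, 6.14 and 4.62 FPKM in Ad-Chrebpα livers and 5.36, 5.80, 5.06 and 4.61 FPKM in Ad-GFP livers, and Plat had 2.47, 2.00, 2.83 and 1.73 FPKM in Ad-Chrebpα livers and 1.82, 3.53, 3.02 and 2.91 FPKM in Ad-GFP livers. F3 was the 1 member of this class whose groups did not overlap, with lower values in Ad-Chrebpα livers, as had 14.5% of all genes, and its log2 fold change was -0.28 ± 0.14 (adjusted p = 0.216, edgeR). Vwf had 1.28, 0.99, 2.11 and 1.51 FPKM in Ad-Chrebpα livers and 1.73, 2.64, 1.55 and 1.26 FPKM in Ad-GFP livers. Thbd had 2.17, 2.03, 3.57 and 2.72 FPKM in Ad-Chrebpα livers and 2.77, 3.66, 2.20 and 2.42 FPKM in Ad-GFP livers, and F13a1 had 0.40, 0.50, 0.89 and 0.73 FPKM in Ad-Chrebpα livers and 0.66, 0.82, 0.57 and 0.68 FPKM in Ad-GFP livers. These 3 genes overlapped between groups, and their log2 fold changes of -0.21, -0.003 and -0.06 were within 1 SE of 0. Tfpi had 4.60, 3.57, 5.32 and 4.41 FPKM in Ad-Chrebpα livers and 4.91, 7.68, 4.43 and 3.99 FPKM in Ad-GFP livers. Plaur, with 6.86, 8.32, 8.94 and 9.07 FPKM in Ad-Chrebpα livers and 7.34, 7.77, 6.42 and 6.59 FPKM in Ad-GFP livers, had the lowest p of the class, with 0.31 ± 0.10 (adjusted p = 0.0874, edgeR).

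Whether a gene's fold change differed between the experiments was tested as the deletion fold change minus the overexpression fold change in 1 fit of all 16 libraries. Plg, Serpinf2 and Klkb1 were called, with differences of -0.69 ± 0.16, -0.75 ± 0.18 and -0.65 ± 0.16 (SE; adjusted p of 0.0382, 0.0428 and 0.0484, edgeR), where 1.62% of the 13830 genes tested were called lower and 0.976% higher. For Plg the fold changes were -0.34 with deletion and 0.33 with overexpression, for Serpinf2 -0.44 and 0.29, and for Klkb1 -0.21 and 0.42. The fibrinogen genes had larger differences and larger errors, at -1.36 ± 0.46 for Fga, -1.28 ± 0.44 for Fgb and -1.24 ± 0.39 for Fgg (adjusted p of 0.113, 0.115 and 0.0963). The count rests on single livers: without liver 21, 12 members were called lower and 1 higher, the 3 fibrinogen genes and the 3 above among the lower ones, where 7.44% of all genes were called lower and 4.61% higher, and without liver 14 Plg was the only call. For the fibrinogen genes, leaving out liver 21 widens the difference by itself. DESeq2 called 10 members lower and 0 higher, where it called 3.51% of all genes lower and 3.59% higher. Diet, its length, virus and mouse line differ between the experiments as well, and cannot be told apart from the direction of the change in Chrebpα.

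**Figure D4:**
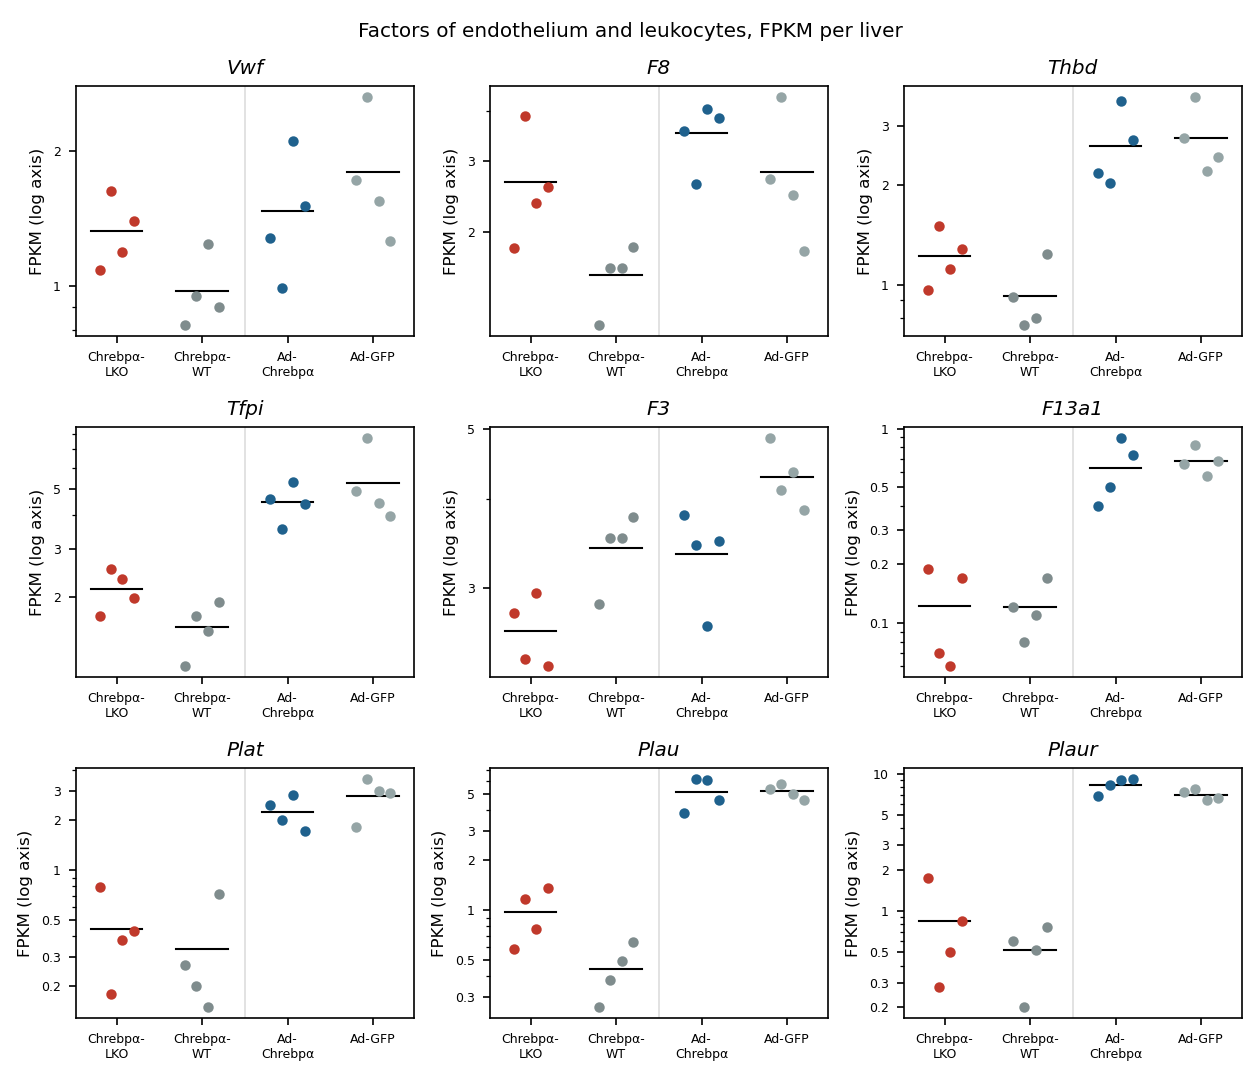
FPKM of the 9 factors of endothelium and leukocytes in each liver on log axes, with 1 point per liver and the arithmetic group mean as a line (n = 4). Plat, Plau, Plaur, F13a1, Tfpi and Thbd lie lower in every liver on the NASH diet than in every liver on the HFLMCD diet. Within each experiment the groups overlap for these genes. Between the control groups, 68.9% of all genes lay lower in FPKM without overlap in Chrebpα-WT livers.

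The third comparison sets the control livers of the experiments against each other, Chrebpα-WT on the NASH diet over Ad-GFP on the HFLMCD diet, which describes how far the diets and their settings move the list. Diet, diet length, virus and mouse line differ together here and cannot be told apart. Fibrinogen, plasminogen, Hrg and Cpb2 were higher and the plasminogen activators and the urokinase receptor were much lower in Chrebpα-WT livers. By edgeR 21 members, all hepatocyte-made, were called higher and 6 lower (F13a1, Tfpi, Thbd, Plat, Plau and Plaur), where 28.2% of the 13488 genes tested were called higher and 30.9% lower. Before adjustment, 23 members were higher and 6 lower at p below 0.05, where 30.6% of all genes were higher and 32.9% lower. In FPKM, 10 members lay higher without overlap and 11 lower, where 4.51% and 68.9% of all genes did. The median log2 fold change was 0.79 for the 23 hepatocyte-made genes and -0.96 for the 9 others, beside -0.01 for all genes. These values depend on the scale. On log2(FPKM + 1), where the median of all genes lies at -0.44, limma called 9 members higher and 13 lower, where it called 5.51% of all genes higher and 72.2% lower. The 9 were Fga, Fgb, Fgg, Plg, Hrg, Serping1, Serpinf2, Klkb1 and Cpb2. F13b and Pros1 were called higher by edgeR and lower on the FPKM scale.

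The hepatocyte markers moved with the hepatocyte-made factors, with 14 of 15 called higher, a median of 1.17 and a summed level of 74511 to 87775 FPKM in Chrebpα-WT against 51470 to 63728 FPKM in Ad-GFP livers. Of 20 macrophage markers 17 were called lower and 2 higher, with a median of -2.28 and a summed level of 131 to 275 FPKM in Chrebpα-WT against 1469 to 2221 FPKM in Ad-GFP livers. Of 18 endothelium markers 2 were called lower and 0 higher, with a median of -0.03. All 5 neutrophil markers tested were negative, 4 of them called lower, with a median of -2.22. All 9 T and B cell markers tested were negative, 6 of them called lower, with a median of -1.84. How much of the difference in the factors goes with the mix of cells was not tested.

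Fibrinogen differed most among the hepatocyte-made genes. With the values per liver given above, Fga, Fgg and Fgb had log2 fold changes of 2.25 ± 0.22, 2.23 ± 0.18 and 2.10 ± 0.21 (SE), and on log2(FPKM + 1) of 1.57, 1.59 and 1.43. Their share of all counts was 1.53% to 2.59% in Chrebpα-WT livers and 0.58% to 0.70% in Ad-GFP livers, so that all 4 Chrebpα-WT livers lay above all Ad-GFP livers. Cpb2 followed with 1.42 ± 0.12, and had the 271 to 355 FPKM given above in Chrebpα-WT livers, against 173, 166, 174 and 172 FPKM in Ad-GFP livers. Hrg had 869, 939, 751 and 658 FPKM in Chrebpα-WT livers, against the 473 to 545 FPKM of Ad-GFP livers, and rose by 1.29 ± 0.15. Plg rose by 1.11 ± 0.14 and did not overlap between groups.

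Klkb1, Kng1 and F12 of the contact pathway and its inhibitor Serping1 had positive fold changes by edgeR. Klkb1 had 54.2, 69.5, 59.2 and 57.6 FPKM in Chrebpα-WT livers, all above the 44.4 to 50.4 FPKM of Ad-GFP livers, and rose by 0.94 ± 0.10. Its neighbour F11 was the only hepatocyte-made gene with a negative fold change, -0.30 ± 0.19, and was not called (adjusted p = 0.195, edgeR). F11 had 11.7 to 21.95 FPKM in Chrebpα-WT and 28.3 to 31.4 FPKM in Ad-GFP livers. These ranges do not overlap, as was so for the 68.9% of all genes that lay lower without overlap in FPKM. Without liver 18, F11 was called lower. The ratio of F11 to Klkb1 within a liver does not depend on how libraries are scaled. It was 0.201 to 0.264 in Chrebpα-LKO and 0.203 to 0.316 in Chrebpα-WT livers, and 0.508 to 0.691 in Ad-Chrebpα and 0.561 to 0.700 in Ad-GFP livers, so every liver on the NASH diet lay below every liver on the HFLMCD diet. Serping1 had 737, 647, 581 and 601 FPKM in Chrebpα-WT livers and rose by 1.02 ± 0.12. Kng1 had 1295, 1141, 1029 and 1133 FPKM in Chrebpα-WT livers and 1075, 918, 1013 and 974 FPKM in Ad-GFP livers, which overlap. Its log2 fold change was 0.83 ± 0.13 by edgeR, and it was not called on log2(FPKM + 1). F12 had 221, 219.6, 243 and 219.8 FPKM in Chrebpα-WT livers and 228, 206, 215 and 225 FPKM in Ad-GFP livers, overlapping, with a log2 fold change of 0.67 ± 0.09 by edgeR and 0.05 on log2(FPKM + 1).

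Serpinf2 rose by 0.93 ± 0.12, with 326, 342, 292 and 278 FPKM in Chrebpα-WT livers and 277, 241, 240.3 and 249 FPKM in Ad-GFP livers, and the groups did not overlap. The other called zymogens and anticoagulants had edgeR log2 fold changes of 0.35 for Pros1 to 0.79 for Proc and F7. On the FPKM scale most of them overlapped. F9 had 76.8, 78.6, 72.0 and 71.5 FPKM in Chrebpα-WT livers and 65.2, 65.3, 68.8 and 75.2 FPKM in Ad-GFP livers, and F10 had 125, 132, 124 and 119 FPKM in Chrebpα-WT livers and 128, 109.9, 118 and 118 FPKM in Ad-GFP livers. Protein C, cleaved by thrombin on thrombomodulin, had 226, 254, 248 and 234 FPKM in Chrebpα-WT livers and 221, 201, 214 and 219.9 FPKM in Ad-GFP livers. F9 and F10 overlapped between groups and Proc was higher in every Chrebpα-WT liver. F5 had 113, 119, 121 and 108 FPKM in Chrebpα-WT livers and 131, 122, 122 and 124 FPKM in Ad-GFP livers, and F13b had 64.6, 77.7, 65.7 and 66.2 FPKM in Chrebpα-WT livers and 78.25, 75.5, 75.4 and 83.0 FPKM in Ad-GFP livers. Protein Z (Proz), the cofactor for inhibition of factor Xa by Serpina10, had 133, 139.9, 128 and 119.7 FPKM in Chrebpα-WT livers and 148, 147, 139.9 and 148 FPKM in Ad-GFP livers, and Pros1 had 25.6, 21.8, 22.2 and 22.4 FPKM in Chrebpα-WT livers and 27.6, 31.4, 25.55 and 27.0 FPKM in Ad-GFP livers. F5 and Proz were lower in FPKM in every Chrebpα-WT liver although edgeR called them higher, so their direction turns with the scale, as does that of F13b and Pros1. The highest Chrebpα-WT and lowest Ad-GFP livers had 120.98 and 121.64 FPKM of F5, and 139.87 and 139.88 FPKM of Proz. On log2(FPKM + 1) limma called neither lower (adjusted p of 0.161 and 0.0589), and without a filter it called Proz (adjusted p = 0.0436).

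Of the factors of endothelium and leukocytes, the urokinase receptor Plaur and the plasminogen activators Plau and Plat differed most. With the values per liver given above, Plau fell by 2.91 ± 0.20 and Plat fell by 2.43 ± 0.40 on the log2 scale in Chrebpα-WT livers (SE; adjusted p of 3.35e-06 and 0.000562, edgeR). Plaur fell by 3.09 ± 0.24. No liver of 1 group reached the other group's range for these 3 genes. F13a1 fell by 1.84 ± 0.23 and Thbd by 0.94 ± 0.19. Tfpi fell by 0.96 ± 0.21. F8 and Vwf were at -0.23 ± 0.23 and -0.24 ± 0.21 and F3 at 0.29 ± 0.12, not called by edgeR, and all 3 were called lower on log2(FPKM + 1). By edgeR, F3 alone of its class had a positive fold change.

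**Figure D5:**
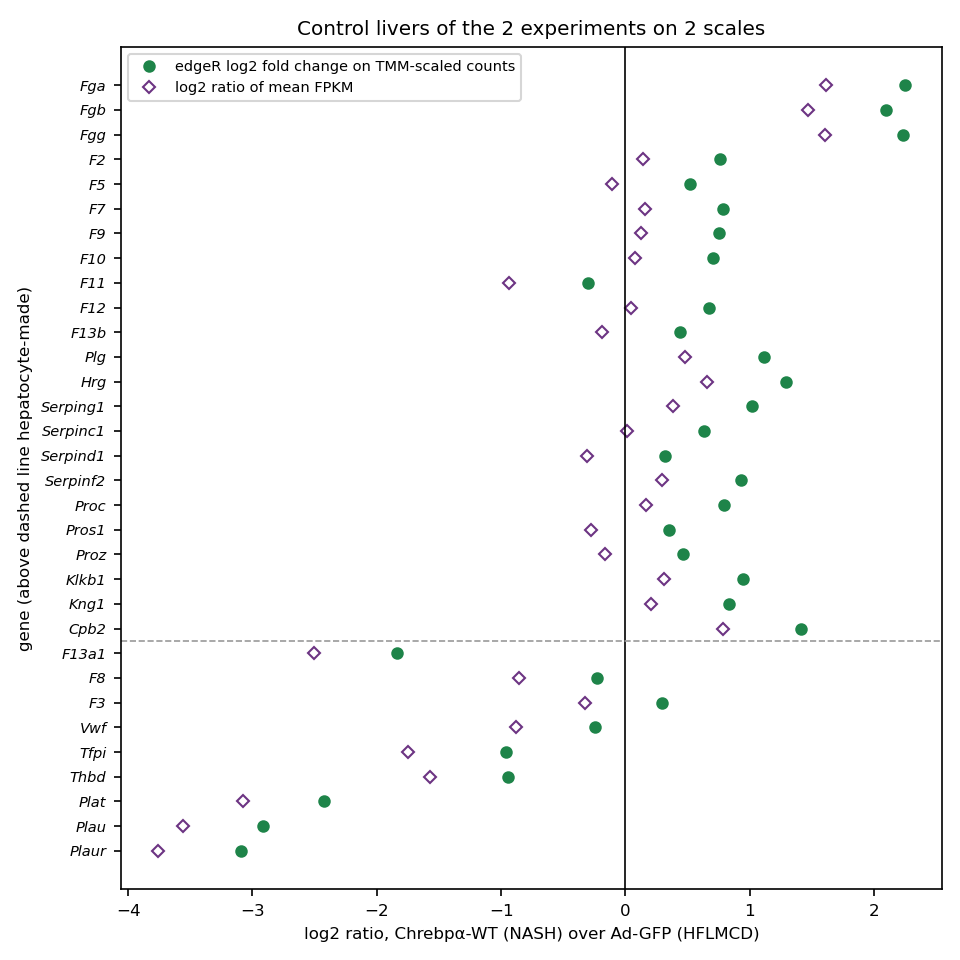
Chrebpα-WT (NASH diet) over Ad-GFP (HFLMCD diet) for each gene on 2 scales, with the edgeR log2 fold change on TMM-scaled counts as filled circles and the log2 ratio of mean FPKM as open diamonds. Fibrinogen lies right of 0 and Plat, Plau and Plaur left of 0 on both scales, and genes such as F5, F13b and Proz change side.

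A further 29 genes of haemostasis were looked at beside the list. With deletion 23 of them were tested and edgeR called 0, as of all genes. The lowest p-values were those of Gas6, a vitamin K-dependent ligand of TAM receptors, of the plasminogen receptor Plgrkt and of Mcfd2, which helps to carry factors V and VIII out of the endoplasmic reticulum, with log2 fold changes of 0.50, 0.46 and -0.23 (adjusted p of 0.31, 0.356 and 0.358, edgeR). With overexpression 25 were tested, and edgeR called 3 lower and 0 higher, where it called 3.18% of all genes lower and 4.95% higher. Anxa2, a plasminogen receptor with S100a10, fell by 0.48 to a mean of 92.5 FPKM in Ad-Chrebpα livers, against 135 FPKM in Ad-GFP livers (adjusted p = 0.0106). F2rl1, a protease-activated receptor, fell by 1.13 to 0.688 FPKM in Ad-Chrebpα livers, against 1.59 FPKM in Ad-GFP livers (adjusted p = 0.0219). Ggcx, the carboxylase that vitamin K-dependent factors need, fell by 0.25 to 14.0 FPKM in Ad-Chrebpα livers, against 17.5 FPKM in Ad-GFP livers (adjusted p = 0.0392). Between the controls 7 of 25 were called higher and 10 lower in Chrebpα-WT livers, where 28.2% of all genes were called higher and 30.9% lower. Plgrkt, Anxa2 and F2rl1 had the lowest p-values there, with log2 fold changes of -1.71, -2.75 and -3.48.

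Of 22 regulators of these genes, 21 were tested in each comparison, and edgeR called 0 in either experiment. With deletion the lowest p-values were those of Cebpb, Klf2 and Klf4, with log2 fold changes of 0.53, 0.71 and 0.74 (adjusted p of 0.305, 0.31 and 0.349, edgeR). Klf2 and Klf4 are transcription factors of endothelium that drive Thbd. With overexpression they were those of Stat3, Onecut1 and Il6ra, with 0.33, -1.41 and 0.51 (adjusted p of 0.0511, 0.058 and 0.0642). Between the controls 14 were called higher and 2 lower in Chrebpα-WT livers, where 28.2% of all genes were called higher and 30.9% lower. Stat3 was at 1.60, Nfe2l2 at -1.46 and Il6ra, the interleukin-6 receptor, at 1.61. Il6 itself was below 0.1 FPKM in every liver on the NASH diet, and averaged 0.0475 FPKM in Ad-Chrebpα and 0.0375 FPKM in Ad-GFP livers.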

How the data were processed

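RNA of whole liver was sequenced in 16 libraries, and the labels do not say whether each came from a separate animal, so a p-value may measure technical spread alone. Reads were aligned with HISAT2, per the submitters' processing notes; no source used here names the counting program or the genome build. The authors deposited, per gene and library, expected counts (estimated, 25.3% to 27.15% of entries not whole) and FPKM, per the file headers. Of 17436 entries, 26 named by transcript were summed into their genes, leaving 17410.

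Expected counts were rounded and tested with edgeR 4.0.16 (filterByExpr, TMM, quasi-likelihood F-test, R 4.3.3), with Benjamini-Hochberg adjustment over all genes tested and a call at an adjusted p below 0.05. The SE of a log2 fold change is its size over the root of F. Alternatives were DESeq2 1.42.0, limma 3.58.1 with voom or on log2(FPKM + 1) or log2(FPKM + 0.1), other filters and size factors, 1 fit of all 16 libraries, and leaving out livers. Scripts were tested on simulated data. FPKM is not corrected for composition. Motifs were searched in RefSeq promoters (GRCm38.p6), which hold only some of the genes.

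The 32 genes, their division and the lists were chosen with earlier results of these data known. Values per liver are given for called genes, for the 6 lowest p-values where fewer than 6 were called, and for Fga, Fgb, Fgg, F2, F7, F11, Plg, Serpinc1, Vwf, Thbd, F8, F3, Plat, Plau and F13a1 always. For other lists, fold changes are given for called genes within the experiments or for the 3 lowest p-values.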

Additional observations from a re-analysis of the deposited data

Results flagged for a closer look

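Within groups of 4 livers, 10 of the 128 sets of FPKM values had 1 liver far from the other 3 (Dixon's ratio), where chance gives about 1 in 20. Liver 21 was such a liver among the Chrebpα-LKO livers for Fga at 3079 FPKM (others 965 to 1220.0), for Fgg at 3550.1 FPKM (others 1270.1 to 1612) and for Serping1 at 713 FPKM (others 533 to 552). Among the Chrebpα-WT livers it was liver 17 for Cpb2 at 355 FPKM (others 271 to 280.2) and for Pros1 at 25.6 FPKM (others 21.8 to 22.4), liver 18 for F13b at 77.7 FPKM (others 64.6 to 66.2), and liver 19 for F12 at 243 FPKM (others 219.6 to 221). Among the Ad-Chrebpα livers it was liver 14 for F9, lowest at 69.6 FPKM (others 74.3 to 74.85), and liver 15 for Serpind1, lowest at 237 FPKM (others 267 to 270.0). Among the Ad-GFP livers it was liver 11 for Proz, lowest at 139.9 FPKM (others 147 to 148).

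The fold changes with deletion and with overexpression differed for Plg by -0.69, for Serpinf2 by -0.75 and for Klkb1 by -0.65 on the log2 scale (edgeR, adjusted p of 0.0382, 0.0428 and 0.0484), and diet, virus and mouse line differ between the experiments too.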

How the results depend on the processing

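No paired analysis was possible because no liver number is shared between groups. Over the alternatives listed under processing, 1642 values of single genes kept their direction and side of the threshold, 56 were no longer past it, 48 came past it and 72 changed sign; the cause was not tested. With deletion, 3 members were called lower without livers 19 and 21, and leaving out single livers gave 0 to 3 (3 without liver 21); the median of the hepatocyte-made genes was -0.12 on log2(FPKM + 1), with or without a filter, and -0.13 on log2(FPKM + 0.1). The fits without liver 21, alone or with liver 19, leave out the liver of a group nearest the other group, which widens the difference by itself. With overexpression, DESeq2 called 12 higher, the fit of all 16 libraries 0, and leaving out single livers 3 to 8. Between the controls, the FPKM settings called 9 higher and 13 lower (14 with no filter), with a hepatocyte-made median of 0.14, and a median of the others of -1.67 at a pseudocount of 0.1. For the difference between experiments, 1 member was called with no filter, 10 with DESeq2, 13 without liver 21 and 1 without liver 14, the only livers left out there.

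Among the fold changes that changed sign with deletion, on FPKM with a pseudocount of 1 (with or without a filter) and then 0.1, F2 was at 0.093 and 0.093, F9 at 0.029 and 0.029, F12 at 0.092 and 0.092, F13b at 0.019 and 0.019, and Serpinc1 at 0.088 and 0.088, and F13a1 was at 0.0019 with a pseudocount of 1. Without single livers, F13a1 ran from -0.44 to 0.050, Serpinc1 from -0.16 to 0.0085, Plat from -0.22 to 0.91 and Plaur from -0.13 to 0.84. Without livers 19 and 21, F2 was at 0.0041, Serpinc1 at 0.014, Plat at -0.49 and Plaur at -0.15. With overexpression on FPKM with pseudocounts of 1 and 0.1, Plau was at -0.019 and -0.025, Pros1 at -0.040 and -0.041 and Proz at -0.044 and -0.044. Thbd was at 0.010 in the fit of all 16 libraries. Without single livers, Plau ran from -0.026 to 0.17, Thbd from -0.17 to 0.14, F13a1 from -0.26 to 0.10, Vwf from -0.42 to 0.0097 and Tfpi from -0.17 to 0.12. Between the controls on FPKM with pseudocounts of 1 and 0.1, F5 was at -0.11 and -0.11, F13b at -0.19 and -0.19, F3 at -0.26 and -0.32, Serpind1 at -0.32 and -0.32, Pros1 at -0.26 and -0.27, and Proz at -0.16 and -0.17, and F8 ran from -0.39 to 0.034 without single livers. For the difference between experiments, Plat was at -0.018 without liver 21 and 0.40 without liver 14, and Plaur at -0.47 without liver 21 and 0.19 without liver 14. Depth limits mainly F13a1, Plat, Plau and Plaur on the NASH diet, with 5 to 103 expected counts per liver.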
